A study of Mus musculus with 12 samples.

Results

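The response to interleukin-4 (IL-4) was examined in alveolar macrophages of mice that lack Lmp7. Alveolar macrophages are the phagocytes that live in the airspaces of the lung. Lmp7, encoded by Psmb8, is a protein-cutting subunit (beta5i) of the immunoproteasome, the form of the proteasome found in immune cells. The comparison took the 3 arrays of IL-4-polarized (M2) knockout cells against the 3 arrays of unpolarized (M0) knockout cells, 6 of the 12 arrays in the series. The other 6 arrays held wild-type M2 and M0 cells and entered the model of the spread and the test of whether the responses of the genotypes differ. All cells came from C57Bl/6J mice of 8 to 12 weeks kept specific pathogen-free, and were washed out of the lungs in 8 washes of 1 ml of PBS. M2 cells received 20 ng/ml IL-4 for up to 24 h, and the M0 cells were left without polarization. The labels do not give the hours in culture of each group, the deleted part of the gene, or whether the 3 arrays of a group held cells of separate animals, so the p-values measure the spread between these arrays, which may be technical. Of 25697 probes, 9200 had a detection p-value under 0.05 on at least 3 of the 12 arrays, and these gave 6563 named genes.

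IL-4 acts on macrophages through a receptor that activates the kinases JAK1 and JAK3 and the transcription factor STAT6. STAT6 dimers bind DNA at palindromic sites and switch on the genes of alternative, or M2, activation, among them arginase, chitinase-like proteins, resistin-like molecules and chemokines that attract T helper cells. Alveolar macrophages depend on lipid and surfactant handling, and in mice their identity genes include Siglecf, Marco, Pparg and Fabp4.

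The share of probes detected was 25.5%, 32.3% and 30.9% on M2 arrays a, b and c and 26.1%, 34.2% and 32.3% on M0 arrays a, b and c, a mean difference of -1.30 percentage points (two-sided exact permutation test, p = 0.5, where 3 against 3 arrays cannot go below 0.1). Both arrays a had the lowest share of their group. Over the tested genes, M2 arrays correlated with each other at r = 0.956 to 0.974, M0 arrays at 0.962 to 0.979, and M2 with M0 arrays at 0.902 to 0.932. Psmb8 itself was undetected on all 6 arrays, with 5.79, 5.62 and 5.72 log2 units on the M2 arrays, against 5.49, 5.36 and 5.67 on the M0 arrays, whereas the wild-type arrays read 7.96, 7.78 and 7.75 in M2 and 7.82, 7.53 and 8.04 in M0 cells. The identity of the cells was checked against 28 alveolar macrophage genes on the array: 21 were detected on all 6 knockout arrays, and Bhlhe41, Car4, Fabp1 and Krt19 on none. All 6 B-cell markers on the array were undetected, and T and NK cell markers were detected for at most 1 gene on any array. Epithelial markers were detected for at most 2 genes on any array, and markers of endothelium and fibroblasts for at most 1. Of the eosinophil, basophil and mast cell markers, 0 to 1 were detected on M2 arrays and 0 on M0 arrays. The dendritic cell marker Siglech and the platelet marker Gp9 were detected on all 6 arrays. Neutrophil and interstitial macrophage markers are given below.

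A large part of the measured transcriptome of the knockout cells differed between M2 and M0 cells. The labels give no hours in culture for each group, so a difference in culture time cannot be told apart from IL-4. Of the 6563 genes, 1422 (21.7%) passed an adjusted p of 0.05 in limma's moderated test, 677 (10.3%) higher and 745 (11.4%) lower in M2 than in M0 cells. The fitted difference reached 2-fold for 140 of the genes that rose and 180 of those that fell, and 4-fold for 24 and 16. The median difference of all genes was 0.0036 on the log2 scale. For 63 genes that rose, the M0 cells gave no detected signal, and 107 genes that fell were undetected in all M2 arrays. Such genes could pass the filter on dim probes through the group where they were detected, and undetected does not mean absent. Among the 4076 of 6563 genes detected on all 6 arrays, a choice that leaves such genes out, 520 rose (12.8%) and 501 fell (12.3%). The balance of the directions depended on the scaling. With the arrays' medians aligned in place of their full distributions (median scaling), 598 genes passed, 186 higher and 412 lower (31.1% higher, against 47.6% of the calls under quantile normalization), and the median of all genes stood at -0.09. In bulk RNA of this kind, fewer cells of a type and less RNA per cell cannot be told apart.

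**Figure D1:**
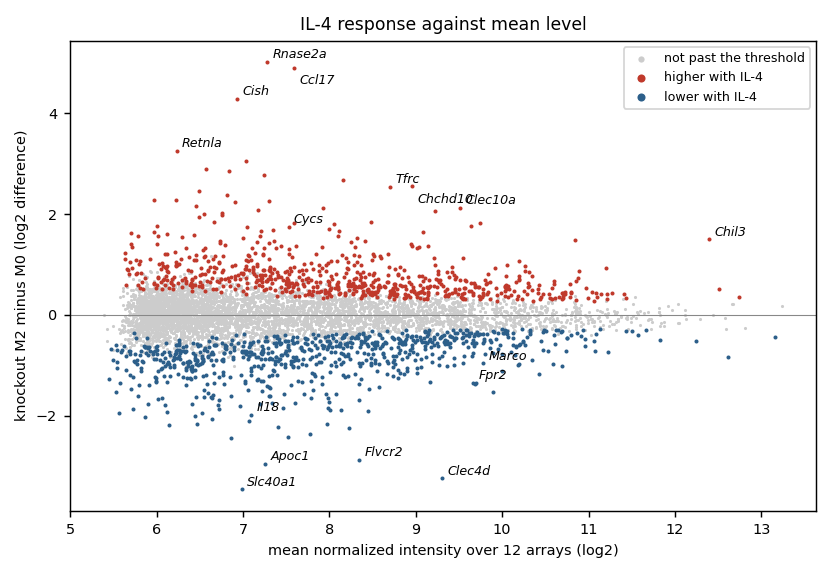
Difference between knockout M2 and knockout M0 cells (log2, vertical axis) against the mean normalized intensity over the 12 arrays (log2, horizontal axis) for the 6563 genes. Red points are the 677 genes higher and blue points the 745 genes lower in M2 cells at an adjusted p under 0.05, grey points the rest; the largest increases are Rnase2a (5.02) and Ccl17 (4.90), and the largest decreases Slc40a1 (-3.46) and Clec4d (-3.24), with undetected arrays at their measured values.

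The largest fitted increases were those of Rnase2a, Ccl17, Cish and Retnla. Rnase2a, an eosinophil-associated ribonuclease, read 9.97, 9.86 and 9.96 log2 units on the M2 arrays, against 4.89, 4.92 and 4.92 on the M0 arrays. Ccl17, a chemokine that attracts T cells bearing CCR4, read 10.32, 10.18 and 10.30 log2 units on the M2 arrays, against 5.39, 5.01 and 5.70 on the M0 arrays. Both were undetected on every M0 array and detected on every M2 array, and were at least 15-fold and at least 19-fold higher (adjusted p = 1.73e-10 and 6.50e-08). Such a bound sets the mean of the bright arrays against the lowest signal of a detected probe on the dim arrays, or the dim probe's own signal where that is higher. Slc30a4, which exports zinc from the cytosol, read 8.51, 8.53 and 8.52 log2 units on the M2 arrays, against 5.37, 5.50 and 5.54 on the M0 arrays, at least 5.66-fold higher (adjusted p = 8.34e-07). Its 3 M2 values lay closer together than its M0 values. Slc27a3, a fatty acid transport protein with acyl-CoA synthetase activity, read 8.15, 7.62 and 7.81 log2 units on the M2 arrays, against 5.39, 5.20 and 5.64 on the M0 arrays (at least 3.58-fold higher, adjusted p = 9.02e-06). Kcnn4, a calcium-activated potassium channel, lay at least 4.13-fold higher (adjusted p = 2.09e-05). Gatm, the first enzyme of creatine synthesis, was at least 2.79-fold higher (adjusted p = 2.32e-07). Olfm1, a secreted olfactomedin glycoprotein, rose by 2.77 ± 0.227 (log2 difference ± SE of the model, adjusted p = 1.24e-05), and was at 8.63, 8.62 and 8.77 in M2 cells, against 5.49, 6.22 and 6.01 in M0 cells. Fbp1, the gluconeogenic fructose-1,6-bisphosphatase, stood at 8.00, 8.23 and 8.13 in M2 cells, against 6.02, 5.23 and 5.93 in M0 cells, where 1 of 3 arrays detected it (2.39 ± 0.203 log2, adjusted p = 1.54e-05). Il1r1, the signalling receptor for interleukin-1, was detected throughout and rose by 2.26 ± 0.116 log2 (adjusted p = 2.74e-07). Chchd10, a protein of the mitochondrial intermembrane space, was at 10.27, 10.24 and 10.27 in M2 cells, against 7.60, 8.01 and 7.53 in M0 cells (2.55 ± 0.154 log2, adjusted p = 1.19e-06). The M2 and M0 arrays of these genes did not overlap, which was a condition for naming them, and 36.4% of all genes met it. Olfm1 was detected on 2 of 3 M0 arrays.

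**Figure D2:**
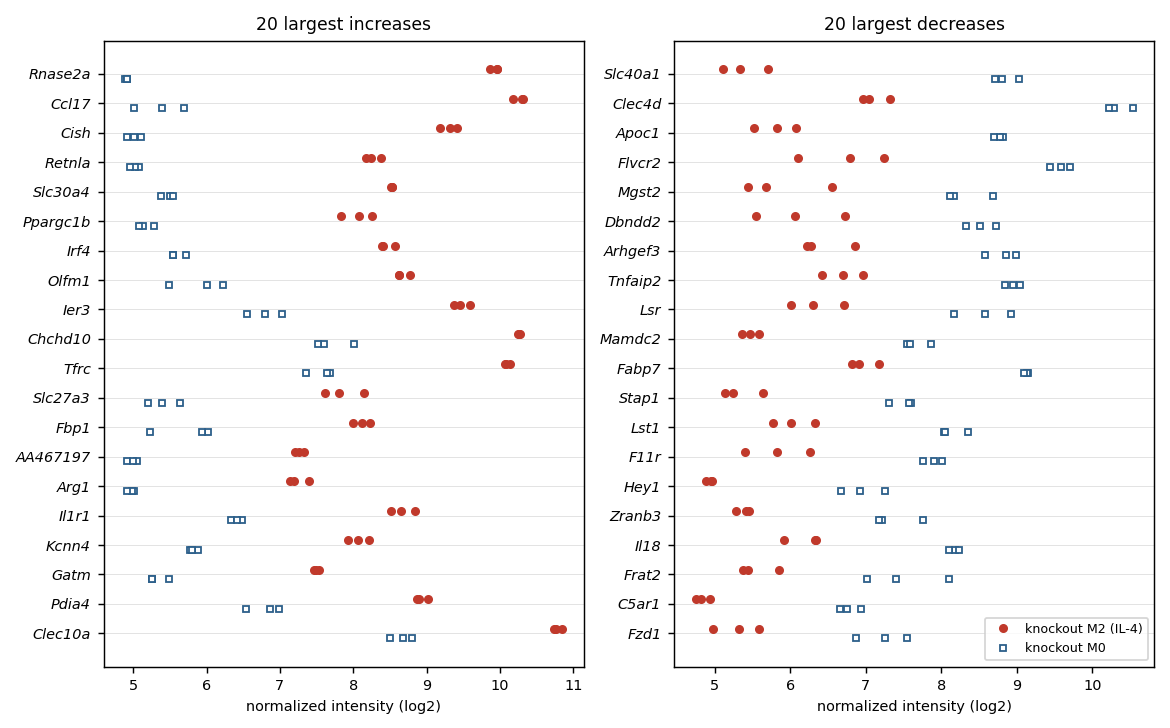
Normalized intensity (log2, horizontal axis) of the 20 genes with the largest increase (left) and the 20 with the largest decrease (right) among genes past an adjusted p of 0.05 without overlap of the groups. Each red circle is a knockout M2 array and each open blue square a knockout M0 array, 3 of each; the M2 arrays of Rnase2a sit at 9.86 to 9.97 and its M0 arrays at 4.89 to 4.92.

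The largest fitted decreases were those of Slc40a1, Clec4d, Apoc1 and Flvcr2. Slc40a1, ferroportin, the exporter of iron from cells, read 5.11, 5.70 and 5.34 log2 units on the M2 arrays, against 9.02, 8.70 and 8.80 on the M0 arrays, at least 6.69-fold lower (adjusted p = 1.21e-07). Apoc1, an apolipoprotein of secreted lipid particles, was at 5.52, 6.07 and 5.82 in M2 cells, against 8.82, 8.78 and 8.69 in M0 cells, and fell by 2.96 ± 0.242 log2 (adjusted p = 1.21e-05). Mgst2, a microsomal glutathione transferase, fell by 2.44 ± 0.314 log2 (adjusted p = 0.000268), with M2 arrays at 5.67, 5.43 and 6.55 and M0 arrays at 8.69, 8.16 and 8.12. Every M2 array of these 3 genes lay below every M0 array, which was a condition for naming the 20 largest decreases. Of all genes tested, 36.4% had groups that did not overlap. Lsr, a lipoprotein receptor that also sits at tricellular junctions, fell by 2.22 ± 0.276 log2 (adjusted p = 0.000212), and F11r, the junctional adhesion molecule A, by 2.06 ± 0.191 log2 (adjusted p = 2.81e-05). Fabp7, a fatty acid binding protein best known from brain, was detected on all 6 arrays, at 6.91, 7.17 and 6.81 in M2 cells and 9.15, 9.13 and 9.10 in M0 cells (-2.16 ± 0.158 log2, adjusted p = 5.15e-06). Stap1, an adaptor of tyrosine kinase signalling, was at least 2.63-fold lower (adjusted p = 1.34e-05), Hey1, a transcriptional repressor induced by Notch, at least 1.81-fold lower (adjusted p = 5.61e-06), and Zranb3, a DNA translocase of stalled replication forks, at least 2.43-fold lower (adjusted p = 2.63e-05). A pair of Wnt pathway genes was among the 20: the receptor Fzd1 (at least 2.18-fold lower, adjusted p = 0.000139) and Frat2, which binds the kinase GSK3 (at least 2.64-fold lower, adjusted p = 0.000366). Lst1, a small leukocyte membrane protein, fell by 2.11 ± 0.179 log2 (adjusted p = 1.52e-05), and Dbndd2, a dysbindin-domain protein, by 2.41 ± 0.305 log2 (adjusted p = 0.000232). Apoc1, Mgst2, F11r, Lst1 and Dbndd2 were detected on 1 of 3 M2 arrays. Lsr was detected on 2 of 3 M2 arrays.

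Gene lists of 15 to 75 genes are described by the members that passed the filter on dim probes, with no test of a list. They are set beside the 10.3% of all genes that rose and the 11.4% that fell. Where the M2 and M0 arrays of a member are said not to overlap, 36.4% of all genes tested met the same condition. Among 21 tested genes of IL-4 signal transduction and its feedback, 4 rose and 3 fell, with a median of -0.01, and the sign of that median turned in 3 of 19 alternative settings. Under median scaling 1 of the 21 fell. The 4 that rose were feedback inhibitors and a kinase. Cish, an SH2 protein that restrains STAT5 signalling, read 9.19, 9.41 and 9.32 log2 units on the M2 arrays, against 5.01, 5.11 and 4.92 on the M0 arrays (at least 9.75-fold higher, adjusted p = 7.42e-10). Socs2, of the same family, read 7.57, 7.48 and 7.51 log2 units on the M2 arrays, against 5.59, 5.86 and 5.59 on the M0 arrays (1.84 ± 0.214 log2, adjusted p = 0.000134). Every M2 array of both lay above every M0 array. Socs6 lay at least 2.39-fold higher (adjusted p = 0.000160). The kinase Jak2 rose by 0.90 ± 0.197 log2 (adjusted p = 0.00744). Socs1 was detected on 1 of the 6 arrays and read 6.63, 5.76 and 5.96 log2 units on the M2 arrays, against 6.22, 5.71 and 5.73 on the M0 arrays (adjusted p = 0.560), so the groups overlapped. Ptpn6, the phosphatase SHP-1, fell by 0.76 ± 0.124 log2 (adjusted p = 0.00119). Stat3 fell by 0.51 ± 0.117 log2 (adjusted p = 0.00943) and the receptor chain Il13ra1 by 0.64 ± 0.195 log2 (adjusted p = 0.0362). The Il13ra1 call was lost in 8 of 18 alternatives, and the gene was detected on 2 of 3 M2 arrays. Stat6 itself was detected on all arrays at 7.48, 7.66 and 7.39 in M2 cells and 7.90, 7.70 and 7.54 in M0 cells, a difference of -0.21 ± 0.139 log2 that missed the threshold (adjusted p = 0.346), as did those of Pias1 (0.05 ± 0.117 log2, adjusted p = 0.826), Stat5a (0.27 ± 0.0955 log2, adjusted p = 0.0706) and Ptpn1 (-0.15 ± 0.121 log2, adjusted p = 0.447). Socs2 was detected on 1 of 3 M0 arrays. Jak2 was detected on 2 of 3 M0 arrays.

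Of 21 transcription regulators linked to alternative activation, 8 rose and 1 fell, with a median of 0.23. Irf4, which acts downstream of STAT6, read 8.39, 8.41 and 8.57 log2 units on the M2 arrays, against 5.72, 5.54 and 5.54 on the M0 arrays (at least 5.40-fold higher, adjusted p = 1.31e-07). Ppargc1b, the coactivator PGC-1beta of mitochondrial genes, read 7.84, 8.26 and 8.08 log2 units on the M2 arrays, against 5.14, 5.08 and 5.28 on the M0 arrays (at least 4.11-fold higher, adjusted p = 1.31e-07). Nfil3, a basic leucine zipper factor, was expressed in both states, at 9.10, 8.93 and 9.05 in M2 cells and 7.48, 7.11 and 7.48 in M0 cells (1.67 ± 0.156 log2, adjusted p = 2.89e-05). For these 3 genes the M2 arrays stood above all M0 arrays. Myc, the growth regulator, rose by 1.20 ± 0.206 log2 (adjusted p = 0.00171), with M2 arrays at 6.70, 7.54 and 7.18 and M0 arrays at 5.68, 6.10 and 6.04. Irf8, a factor of the interferon and monocyte programmes, was the member that fell, at 7.27, 6.91 and 7.39 in M2 cells, against 8.19, 7.94 and 8.43 in M0 cells (-0.999 ± 0.168 log2, adjusted p = 0.00145). Pparg, the lipid-sensing nuclear receptor that alveolar macrophages need to develop, differed by 0.18 ± 0.109 log2 (adjusted p = 0.275) and its dimmer probe by 0.56 log2. Bhlhe40 differed by 0.23 ± 0.114 log2 (adjusted p = 0.185) and Klf6 by -0.27 ± 0.0969 log2 (adjusted p = 0.0684). Under median scaling 4 of the 21 passed as higher. Myc was detected on 2 of 3 M0 arrays.

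Of 23 tested M2 secreted proteins, enzymes and surface lectins, 15 rose and 2 fell, with a median of 1.00, and 9 of the 14 detected on all 6 arrays rose. Without M0 array b, M0 array c or M2 array c, 1 of the 23 fell. Retnla, a resistin-like molecule, read 8.18, 8.38 and 8.25 log2 units on the M2 arrays, against 5.07, 5.02 and 4.95 on the M0 arrays (at least 4.75-fold higher, adjusted p = 1.34e-07). Arg1, the arginase that turns arginine into ornithine, read 7.20, 7.39 and 7.14 log2 units on the M2 arrays, against 5.01, 4.98 and 4.92 on the M0 arrays (at least 2.33-fold higher, adjusted p = 8.87e-07). All M2 arrays of both genes were detected and all M0 arrays undetected. Chil3, a chitinase-like protein that was bright before IL-4, stood at 13.20, 13.20 and 13.20 in M2 cells and 11.83, 11.58 and 11.66 in M0 cells (1.504 ± 0.0961 log2, adjusted p = 1.61e-06). The 3 M2 values lay close to the top of the scale, 13.3, and its other probes differed by 1.21 and 1.66 log2. Clec10a, a galactose-type lectin, read 10.76, 10.85 and 10.74 log2 units on the M2 arrays, against 8.68, 8.80 and 8.50 on the M0 arrays (2.12 ± 0.0999 log2, adjusted p = 1.41e-07). Dcstamp, a protein of macrophage fusion, rose by 2.08 ± 0.252 log2 (adjusted p = 0.000169), and Ch25h, which makes 25-hydroxycholesterol, by 2.06 ± 0.185 log2 (adjusted p = 2.12e-05). Mrc1, the mannose receptor often used as an M2 marker, was bright in both states, at 10.57, 10.43 and 10.60 in M2 cells and 10.36, 10.35 and 10.41 in M0 cells (0.16 ± 0.0940 log2, adjusted p = 0.261). Cd36 (-0.03 ± 0.130 log2, adjusted p = 0.902) and Atp6v0d2 (0.18 ± 0.133 log2, adjusted p = 0.409) missed the threshold as well. Dcstamp was detected on 2 of 3 M0 arrays.

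The promoters of Ccl17, Retnla and Slc27a3 are shown because these are the genes among the 20 largest increases whose promoter window held the palindromic STAT6 motif, TTC and GAA with 4 bases between them, and was in the table used. The windows run from 250 bases before to 50 bases after the start of the gene on its own strand, from RefSeq on GRCm38.p6. They lie at chr8:94810203-94810502 (plus strand), chr16:48842359-48842658 (plus strand) and chr3:90389889-90390188 (minus strand), in that order of genes. Capitals mark the match.
Ccl17: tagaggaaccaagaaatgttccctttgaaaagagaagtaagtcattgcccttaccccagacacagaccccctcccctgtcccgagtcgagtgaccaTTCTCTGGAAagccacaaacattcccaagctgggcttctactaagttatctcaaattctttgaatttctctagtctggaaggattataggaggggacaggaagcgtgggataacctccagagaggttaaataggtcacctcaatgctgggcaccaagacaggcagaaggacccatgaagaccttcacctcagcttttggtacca
Retnla: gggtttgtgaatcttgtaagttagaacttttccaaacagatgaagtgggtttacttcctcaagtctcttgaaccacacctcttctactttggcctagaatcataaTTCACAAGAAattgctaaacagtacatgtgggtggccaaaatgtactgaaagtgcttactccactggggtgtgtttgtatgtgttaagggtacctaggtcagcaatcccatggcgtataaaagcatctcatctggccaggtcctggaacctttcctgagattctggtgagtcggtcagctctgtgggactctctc
Slc27a3: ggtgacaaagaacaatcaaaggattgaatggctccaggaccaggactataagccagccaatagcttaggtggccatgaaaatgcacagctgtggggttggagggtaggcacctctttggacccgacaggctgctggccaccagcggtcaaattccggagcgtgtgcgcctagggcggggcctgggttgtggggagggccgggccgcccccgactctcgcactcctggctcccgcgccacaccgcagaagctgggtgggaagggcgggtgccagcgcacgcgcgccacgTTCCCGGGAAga
The match begins at base -154 from the start of Ccl17, -145 from that of Retnla and 38 after that of Slc27a3. The motif reads the same on both strands. Of the 20 largest increases, 17 had a window and 3 held the motif, and of the 20 largest decreases 13 had a window and 3 held it. Over all genes that rose, 36 of 565 windows held it (6.37%), over those that fell 38 of 614 (6.19%), over all tested genes 359 of 5420 (6.62%), and over all promoters given 2284 of 32851 (6.95%). A match describes these letters in this window and is no measurement of binding.

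Of 25 tested genes of the unfolded protein response and of folding in the endoplasmic reticulum (ER), 15 rose and 1 fell, with a median of 0.59, and 13 of the 20 detected on all 6 arrays rose. Pdia4, a protein disulfide isomerase of the ER, read 8.90, 9.02 and 8.87 log2 units on the M2 arrays, against 6.54, 6.99 and 6.86 on the M0 arrays (2.13 ± 0.142 log2, adjusted p = 2.33e-06). Manf, a secreted ER stress protein, read 9.36, 9.54 and 9.36 log2 units on the M2 arrays, against 7.36, 7.74 and 7.65 on the M0 arrays (1.83 ± 0.115 log2, adjusted p = 1.55e-06). The states did not overlap for either gene. Creld2 (1.80 ± 0.155 log2, adjusted p = 1.54e-05) and the chaperone Hyou1 (1.74 ± 0.245 log2, adjusted p = 0.000463) rose as well. Herpud1, a component of ER-associated degradation, was at 10.60, 10.75 and 10.60 in M2 cells, against an already bright 9.61, 9.85 and 9.55 in M0 cells (0.98 ± 0.110 log2, adjusted p = 0.000104). Atf4, a transcription factor of this response, rose by 0.76 ± 0.222 log2 (adjusted p = 0.0308). Xbp1, another, differed by 0.17 ± 0.0956 log2 (adjusted p = 0.258). Sel1l (0.23 ± 0.117 log2, adjusted p = 0.201) and Edem1 (0.25 ± 0.130 log2, adjusted p = 0.207) missed the threshold too, while 1 of 2 other probes of Sel1l rose by 0.40 log2 (adjusted p over probes = 0.0462). Hyou1 was detected on 2 of 3 M0 arrays.

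Of 41 genes of ER translocation, N-glycosylation and transport to the Golgi, 19 rose and 0 fell, with a median of 0.35, and 18 of the 35 detected on all 6 arrays rose. Ostc, a subunit of the oligosaccharyltransferase, read 8.38, 8.13 and 8.45 log2 units on the M2 arrays, against 6.77, 7.06 and 7.19 on the M0 arrays (1.31 ± 0.139 log2, adjusted p = 6.80e-05). Ddost, another subunit of it, read 8.84, 8.89 and 8.93 log2 units on the M2 arrays, against 7.88, 7.89 and 7.72 on the M0 arrays (1.06 ± 0.133 log2, adjusted p = 0.000232). Both subunits were higher on every M2 array than on any M0 array. Ssr2 of the translocon-associated complex (1.20 ± 0.133 log2, adjusted p = 9.29e-05), Sec61b of the translocon (1.20 ± 0.260 log2, adjusted p = 0.00703) and Lman1, a cargo receptor (0.96 ± 0.139 log2, adjusted p = 0.000546), rose as well. The 3 brightest members that missed the threshold differed less: Kdelr1 differed by -0.09 ± 0.127 log2 (adjusted p = 0.697), Rpn2 by 0.26 ± 0.0959 (adjusted p = 0.0824) and Ssr3 by 0.12 ± 0.114 (adjusted p = 0.524). Under median scaling 6 of the 25 folding genes and 5 of the 41 export genes passed as higher, with medians of 0.48 and 0.23, and the 1 folding gene that fell was not called there or with any 1 array left out.

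Of 52 tested subunits of the respiratory chain and ATP synthase, 50 rose and 0 fell, with a median of 0.56 and a range of 0.16 to 1.75, where 10.3% of all genes rose. Of the 50 detected on all 6 arrays, 48 rose, and 5 of the 57 listed subunits were not tested. Cycs, cytochrome c, the soluble electron carrier, read 8.48, 8.57 and 8.45 log2 units on the M2 arrays, against 6.41, 7.02 and 6.82 on the M0 arrays (1.75 ± 0.227 log2, adjusted p = 0.000274). Cyc1, the cytochrome c1 of complex III, read 8.12, 8.16 and 8.31 log2 units on the M2 arrays, against 6.14, 6.78 and 6.67 on the M0 arrays (1.67 ± 0.241 log2, adjusted p = 0.000528). Both cytochromes were higher on every M2 array than on any M0 array, with the lowest values on M0 array a. The ATP synthase subunits Atp5o (1.46 ± 0.211 log2, adjusted p = 0.000524) and Atp5g1 (1.09 ± 0.115 log2, adjusted p = 6.80e-05), Cox7a2 of complex IV (1.43 ± 0.237 log2, adjusted p = 0.00133) and Ndufc1 of complex I (1.15 ± 0.116 log2, adjusted p = 5.09e-05) followed. The 2 that did not pass were Ndufa1 (0.19 ± 0.119 log2, adjusted p = 0.319) and Cox4i1 (0.16 ± 0.0921 log2, adjusted p = 0.257). The median SE over all genes was 0.175 log2. Under median scaling 8 of the 52 passed, with a median of 0.46; 38 to 44 passed with 1 array left out, and 35 without both arrays a. The median stayed positive in all 19 alternative settings. Cyc1 and Cox7a2 were detected on 2 of 3 M0 arrays.

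Of 30 genes of the tricarboxylic acid cycle and fatty acid oxidation, 13 rose and 1 fell, with a median of 0.28, and 0 fell with any 1 array other than M0 array a left out. The member that fell was Cpt1a, of fatty acid oxidation (-0.30 ± 0.0986 log2, adjusted p = 0.0497). Of the fatty acid oxidation genes, only Acadvl (0.44 ± 0.119 log2, adjusted p = 0.0212) and Etfb (0.33 ± 0.0963 log2, adjusted p = 0.0300) rose. The fumarase Fh1 read 8.52, 8.44 and 8.34 log2 units on the M2 arrays, against 7.33, 7.46 and 7.52 on the M0 arrays (0.997 ± 0.124 log2, adjusted p = 0.000205). Mdh2 (0.66 ± 0.0914 log2, adjusted p = 0.000425), Idh2 (0.71 ± 0.136 log2, adjusted p = 0.00328), Dld (0.62 ± 0.104 log2, adjusted p = 0.00146) and the pyruvate dehydrogenase subunits Pdhb (0.61 ± 0.139 log2, adjusted p = 0.00932) and Pdha1 (0.58 ± 0.0930 log2, adjusted p = 0.00111) rose, calls that median scaling ended. Under that scaling 1 of the 30 passed, and 6 passed without both arrays a. Acsl5 (0.06 ± 0.0980 log2, adjusted p = 0.730) and Acads (0.04 ± 0.111 log2, adjusted p = 0.864), enzymes of fatty acid activation and oxidation, and Etfa (0.33 ± 0.114 log2, adjusted p = 0.0626), an electron carrier from it, missed the threshold. The other 3 probes of Etfa passed as higher, by 0.48, 0.56 and 0.42 log2 (adjusted p over probes = 0.0131, 0.0464 and 0.0295). Of 66 mitochondrial ribosomal proteins, 20 rose and 1 fell, with a median of 0.29. Mrpl12 read 9.13, 9.10 and 9.09 log2 units on the M2 arrays, against 7.75, 7.73 and 7.81 on the M0 arrays (1.34 ± 0.119 log2, adjusted p = 2.07e-05), Mrps28 rose by 1.21 ± 0.126 log2 (adjusted p = 6.40e-05) and Mrps35 by 1.002 ± 0.134 log2 (adjusted p = 0.000335). Under median scaling 4 of the 66 passed as higher, without M0 array b or c 13, without M2 array c 12, and without both arrays a 13.

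**Figure D3:**
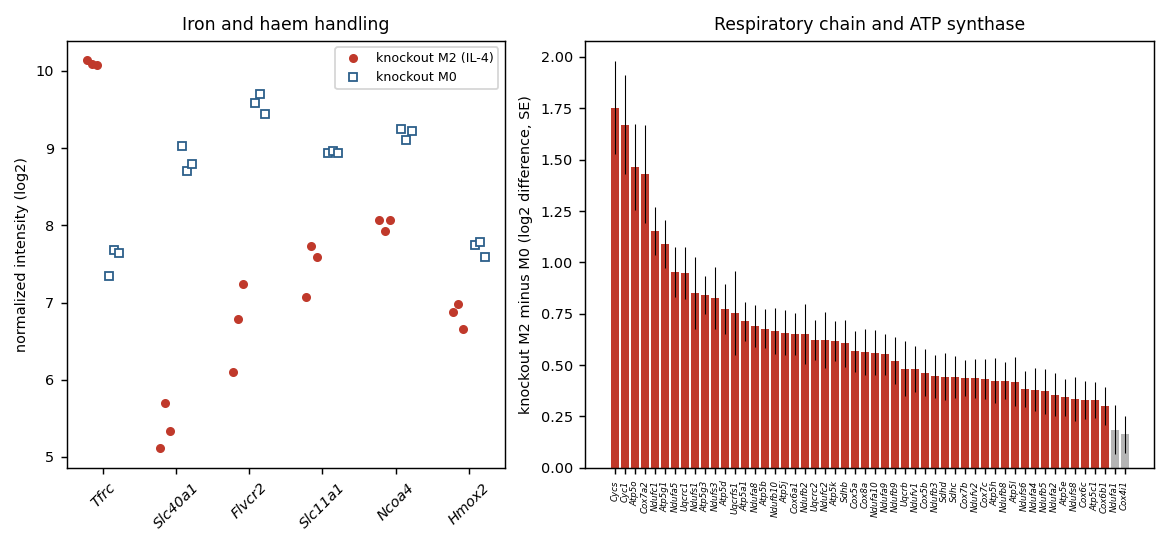
Left, normalized intensity (log2) of the 6 genes of iron and haem handling with the largest differences past the threshold. Red circles are the 3 knockout M2 arrays and open blue squares the 3 knockout M0 arrays. The 6 genes were chosen by size, and their groups do not overlap, which held for 36.4% of all genes tested. Right, difference between knockout M2 and M0 cells (log2, bars with the SE of the model) for the 52 subunits of the respiratory chain and ATP synthase; red bars passed an adjusted p of 0.05 and the 2 grey bars did not.

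The importer of iron Tfrc rose, and genes of iron export and of its release from ferritin fell. Tfrc, the transferrin receptor that brings iron into cells, read 10.14, 10.09 and 10.07 log2 units on the M2 arrays, against 7.35, 7.69 and 7.65 on the M0 arrays (2.54 ± 0.114 log2, adjusted p = 1.31e-07). Against this increase stood the loss of detected Slc40a1, and Flvcr2, a transporter of the FLVCR family, fell by 2.87 ± 0.237 log2 (adjusted p = 1.25e-05), with M2 arrays at 6.09, 6.79 and 7.23 and M0 arrays at 9.59, 9.70 and 9.44. Slc11a1, a metal transporter of the phagosome, read 7.07, 7.73 and 7.59 log2 units on the M2 arrays, against 8.93, 8.96 and 8.93 on the M0 arrays (-1.48 ± 0.153 log2, adjusted p = 6.17e-05). Ncoa4, the receptor that takes ferritin to lysosomes, read 8.07, 7.93 and 8.07 log2 units on the M2 arrays, against 9.25, 9.11 and 9.22 on the M0 arrays (-1.17 ± 0.1002 log2, adjusted p = 1.54e-05). The 4 genes kept M2 and M0 arrays apart, Tfrc with M2 on top and the others with M0. Hmox2, the constitutive haem oxygenase, fell by 0.87 ± 0.169 log2 (adjusted p = 0.00374), while the inducible Hmox1 differed by -0.24 ± 0.134 log2 and missed the threshold (adjusted p = 0.252). In all, 1 of 22 tested genes of iron and haem handling rose and 8 fell, with a median of -0.09 that was 0.06 without M0 array a. Blvra (0.12 ± 0.0982 log2, adjusted p = 0.429) and the haem transporter Slc48a1 (0.07 ± 0.110 log2, adjusted p = 0.734) were among the 13 that missed the threshold. Flvcr2 was detected on 2 of 3 M2 arrays.

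Of 26 genes of lipid uptake, storage and cholesterol efflux, 9 fell and 0 rose, with a median of -0.22, or -0.15 with undetected groups at their bound. Beside Apoc1, Abca1, which loads cholesterol onto apolipoproteins, read 5.92, 7.13 and 6.88 log2 units on the M2 arrays, against 7.94, 8.08 and 7.90 on the M0 arrays (-1.32 ± 0.250 log2, adjusted p = 0.00310). Apoe, an apolipoprotein of the same particles, read 7.12, 6.62 and 6.18 log2 units on the M2 arrays, against 8.14, 7.82 and 7.66 on the M0 arrays (-1.24 ± 0.253 log2, adjusted p = 0.00496). The M2 arrays of both spread widely but lay below all M0 arrays. Pltp, the phospholipid transfer protein, fell by 0.96 ± 0.189 log2 (adjusted p = 0.00379), and Mylip, which degrades lipoprotein receptors, fell to undetected levels of 5.07, 5.21 and 5.31 in M2 cells, against 5.63, 6.06 and 6.32 in M0 cells (adjusted p = 0.00448). Of the bright members that missed the threshold, Lpl, lipoprotein lipase, was at 12.08, 12.20 and 12.20 in M2 cells and 12.03, 12.01 and 12.16 in M0 cells (0.09 ± 0.0972 log2, adjusted p = 0.581), and Fabp4, a fatty acid binding protein, differed by -0.15 ± 0.116 log2 (adjusted p = 0.438). Of 19 genes of cholesterol and unsaturated fatty acid synthesis, 5 rose and 0 fell, with a median of 0.24. Scd1, the stearoyl-CoA desaturase, read 9.03, 9.11 and 9.10 log2 units on the M2 arrays, against 7.73, 7.56 and 7.61 on the M0 arrays (1.45 ± 0.148 log2, adjusted p = 5.56e-05). Hmgcs1 (-0.11 ± 0.114 log2, adjusted p = 0.560), Idi1 (0.09 ± 0.120 log2, adjusted p = 0.689) and Insig1 (-0.16 ± 0.0955 log2, adjusted p = 0.274), further genes of this pathway, missed the threshold. Under median scaling 2 of the 19 rose, and without M0 array b 3. Mylip was detected on 2 of 3 M0 arrays. Abca1 was detected on 2 of 3 M2 arrays.

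Of 16 genes of eicosanoid synthesis, breakdown and receptors, 2 rose and 4 fell, and the sign of the median turned in 5 of 19 settings. Without M0 array c or M2 array b 1 rose, and without M0 array a, M2 array b or M2 array c 2 fell. The prostanoid receptors went in opposite directions. Ptgir, the prostacyclin receptor, read 9.79, 9.99 and 9.77 log2 units on the M2 arrays, against 8.40, 8.55 and 8.47 on the M0 arrays (1.37 ± 0.102 log2, adjusted p = 5.61e-06), and Ptger2, a prostaglandin E2 receptor, was at least 1.67-fold lower (adjusted p = 0.000866). Alox5ap, which 5-lipoxygenase needs to make leukotrienes, read 9.32, 9.39 and 9.63 log2 units on the M2 arrays, against 10.17, 10.29 and 10.18 on the M0 arrays (-0.77 ± 0.104 log2, adjusted p = 0.000373).

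Glycolysis showed no common direction, with 3 of 20 genes higher and 3 lower. Pfkp, the platelet-type phosphofructokinase, read 8.45, 8.54 and 8.73 log2 units on the M2 arrays, against 7.13, 6.54 and 6.58 on the M0 arrays (1.82 ± 0.171 log2, adjusted p = 2.95e-05). Hk2, a hexokinase, rose by 0.55 ± 0.0984 log2 (adjusted p = 0.00222), and Taldo1, the transaldolase of the pentose phosphate pathway, fell by 0.47 ± 0.0997 log2 (adjusted p = 0.00610), calls that median scaling ended for both. Aldoa (-0.104 ± 0.114 log2, adjusted p = 0.592), Tkt (0.03 ± 0.0961 log2, adjusted p = 0.859) and Pkm (-0.30 ± 0.0990 log2, adjusted p = 0.0530) missed the threshold. The median of the list was -0.08, and 0.0059 without M2 array b. Under median scaling 1 rose and 1 fell.

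In 3 lists of biosynthetic genes most members missed the threshold, and those that passed were all higher. Of 27 genes of ribosome biogenesis, 11 rose and 0 fell, with a median of 0.45. Nop58, a core protein of box C/D small nucleolar particles, read 8.24, 8.16 and 8.30 log2 units on the M2 arrays, against 6.35, 7.24 and 7.01 on the M0 arrays (1.37 ± 0.194 log2, adjusted p = 0.000481). Rrs1 (1.20 ± 0.186 log2, adjusted p = 0.000859) and Gar1, of box H/ACA particles (0.94 ± 0.118 log2, adjusted p = 0.000223), rose as well, whereas the bright Npm1 (-0.28 ± 0.110 log2, adjusted p = 0.0942) and Ddx21 (0.20 ± 0.0902 log2, adjusted p = 0.141) missed the threshold. Of 24 tRNA synthetases and amino acid enzymes, 9 rose and 0 fell, with a median of 0.39. Asns, asparagine synthetase, read 7.64, 7.54 and 7.87 log2 units on the M2 arrays, against 6.37, 6.404 and 6.32 on the M0 arrays (1.32 ± 0.197 log2, adjusted p = 0.000669), and Got1, the cytosolic aspartate transaminase, rose by 1.07 ± 0.132 log2 (adjusted p = 0.000195), while its mitochondrial counterpart Got2 differed by -0.06 ± 0.103 log2 (adjusted p = 0.747). Of 20 genes of polyamine and nucleotide synthesis, 8 rose and 0 fell, with a median of 0.24. Ctps, which makes CTP, read 7.48, 7.17 and 7.04 log2 units on the M2 arrays, against 6.22, 5.69 and 6.30 on the M0 arrays (1.16 ± 0.225 log2, adjusted p = 0.00358). In Ctps, as in Nop58 and Asns, no M2 array fell within the M0 range. Srm, spermidine synthase (0.99 ± 0.163 log2, adjusted p = 0.00131), rose by 1.16 log2 with an adjusted p of 0.0505 without both arrays a, and Prps1, which makes the activated ribose of nucleotides (0.84 ± 0.126 log2, adjusted p = 0.000647), lost its call under median scaling. Under median scaling 4 of the 27, 2 of the 24 and 2 of the 20 rose. The amino acid list had 5 higher without M0 array c, and the nucleotide list 4 without both arrays a. Ctps was detected on 1 of 3 M0 arrays. Srm was detected on 2 of 3 M0 arrays.

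Of 27 genes of the cell cycle and DNA replication, 8 rose and 1 fell, with a median of 0.39. Ccnd2, a D-type cyclin that drives entry into the cycle, read 8.80, 8.39 and 8.81 log2 units on the M2 arrays, against 7.29, 7.64 and 7.70 on the M0 arrays (1.12 ± 0.160 log2, adjusted p = 0.000511). Cdkn1b, the inhibitor p27 that holds it back, read 6.63, 6.66 and 6.62 log2 units on the M2 arrays, against 7.73, 7.96 and 8.16 on the M0 arrays (-1.31 ± 0.160 log2, adjusted p = 0.000187). The cyclin and the inhibitor thus moved in opposite directions, each without overlap. The replication helicase subunit Mcm3 rose by 0.76 ± 0.176 log2 (adjusted p = 0.0102), which missed the threshold with medians aligned, and the bright Pcna differed by 0.25 ± 0.111 log2 (adjusted p = 0.137). Median scaling left 3 of the 27 higher, and leaving out M0 array a, M2 array b or M2 array c left 5. Mcm3 was detected on 2 of 3 M0 arrays.

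Surface receptors of chemoattractants fell, with 1 exception. Of 8 tested, 7 fell and 1 rose, with a median of -1.12, or -0.75 with undetected groups at their bound, while 12 of the 20 listed were not tested. Of the 4 detected on all 6 arrays, 3 fell and 1 rose. C5ar1, the receptor of complement C5a, read 4.75, 4.93 and 4.82 log2 units on the M2 arrays, against 6.66, 6.94 and 6.75 on the M0 arrays (at least 1.60-fold lower, adjusted p = 9.29e-05). Fpr2, a formyl peptide receptor, was bright and read 8.74, 8.45 and 8.63 log2 units on the M2 arrays, against 9.96, 9.86 and 10.05 on the M0 arrays (-1.35 ± 0.106 log2, adjusted p = 9.34e-06). All M2 arrays of both receptors were below the M0 arrays. Ccrl2, an atypical chemokine receptor, fell by 1.13 ± 0.184 log2 (adjusted p = 0.00120), and Cxcr1 was at least 1.19-fold lower (adjusted p = 0.00610), at 4.99, 5.28 and 5.005 in M2 cells, against 5.59, 6.66 and 6.79 in M0 cells, where 2 of 3 arrays detected it. Cxcr2, a receptor best known from neutrophils, went the other way, with 8.21, 8.78 and 7.95 log2 units on the M2 arrays, against 6.73, 7.28 and 6.52 on the M0 arrays (1.47 ± 0.272 log2, adjusted p = 0.00269). Of 3 tested neutrophil markers, 2 fell with these receptors, with a list median of -1.35: S100a8 read 6.68, 6.82 and 6.72 log2 units on the M2 arrays, against 8.38, 8.05 and 8.04 on the M0 arrays (-1.42 ± 0.152 log2, adjusted p = 7.51e-05). Csf3r, the receptor of granulocyte colony-stimulating factor, was named after its values were seen. It was detected on all 3 M0 arrays and on 0 of 3 M2 arrays (at least 2.54-fold lower in M2 cells, adjusted p = 0.000488). Its call was lost in 1 of the 18 alternatives run for it, where the difference shrank to -0.108 log2 (adjusted p = 0.826). Of 10 neutrophil markers on the array 1 to 2 were detected on M2 arrays and 2 on M0 arrays, with a summed level of 139 to 239 intensity units in M2 and 259 to 456 in M0 cells, and 7 of the 10, S100a9, Mpo, Elane and Retnlg among them, were undetected on all 6 arrays. The part of these cells in the result was not tested. Ccrl2 was detected on 1 of 3 M2 arrays.

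Of 16 Fc and C-type lectin receptors, 4 rose and 9 fell, with a median of -0.43. The lectins Clec4a3 (0.75 ± 0.107 log2, adjusted p = 0.000522), Clec4b1 (0.68 ± 0.0931 log2, adjusted p = 0.000394) and Clec4a1 (0.72 ± 0.208 log2, adjusted p = 0.0291) rose. A pair of lectins that sense mycobacterial glycolipid fell. Clec4d read 6.96, 7.04 and 7.32 log2 units on the M2 arrays, against 10.53, 10.29 and 10.22 on the M0 arrays (-3.24 ± 0.147 log2, adjusted p = 1.31e-07), and Clec4e, its partner, read 5.81, 5.90 and 6.14 log2 units on the M2 arrays, against 7.52, 7.09 and 7.52 on the M0 arrays (-1.42 ± 0.148 log2, adjusted p = 6.20e-05). Clec4n, dectin-2, fell by 0.77 ± 0.110 log2 (adjusted p = 0.000511), whereas Clec7a, dectin-1, stood at 12.20, 12.13 and 12.13 in M2 cells and 12.10, 12.16 and 12.20 in M0 cells (-0.0016 ± 0.0943 log2, adjusted p = 0.994). The M2 arrays of Clec4d and Clec4e were all lower, and those of Clec7a overlapped the M0 arrays. Of the Fc receptors, Fcgr2b, the inhibitory one, read 7.79, 8.00 and 8.34 log2 units on the M2 arrays, against 6.68, 6.51 and 6.39 on the M0 arrays (1.52 ± 0.210 log2, adjusted p = 0.000410). Fcgr4, an activating one, read 9.36, 9.05 and 9.29 log2 units on the M2 arrays, against 10.61, 10.63 and 10.52 on the M0 arrays (-1.35 ± 0.112 log2, adjusted p = 1.27e-05). The inhibitory and the activating receptor were apart in opposite directions. The lectin-like Cd302 fell by 0.88 ± 0.125 log2 (adjusted p = 0.000466). Clec5a (-0.37 ± 0.169 log2, adjusted p = 0.149) missed the threshold. Under median scaling 1 of the 16 rose. Clec4e was detected on 1 of 3 M2 arrays. Its dimmer probe missed the threshold (-0.89 log2, adjusted p over probes = 0.0532) and was undetected on every knockout array. Clec5a was detected on 2 of 3 M2 arrays.

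Of 28 pattern recognition and scavenger receptors and their adaptors, 10 fell and 2 rose, with a median of -0.31, or -0.17 with undetected groups at their bound. The 2 that rose were Tlr4 (0.64 ± 0.122 log2, adjusted p = 0.00325) and the adaptor Ticam2 (0.57 ± 0.122 log2, adjusted p = 0.0065). Tlr13, a sensor of bacterial ribosomal RNA in mice, read 6.99, 7.02 and 7.27 log2 units on the M2 arrays, against 8.37, 8.18 and 8.24 on the M0 arrays (-1.17 ± 0.115 log2, adjusted p = 4.02e-05). Tlr7, a sensor of single-stranded RNA, fell by 1.11 ± 0.260 log2 (adjusted p = 0.0103), a call lost without both arrays a (-1.15 log2, adjusted p = 0.0573). Mertk, a receptor for apoptotic cells, read 7.95, 7.89 and 8.01 log2 units on the M2 arrays, against 8.90, 8.93 and 8.87 on the M0 arrays (-0.95 ± 0.0995 log2, adjusted p = 6.40e-05), while its relative Axl differed by -0.07 ± 0.0911 log2 (adjusted p = 0.644). Tlr13 and Mertk were lower on every M2 array. Cd14, the lipopolysaccharide co-receptor, was undetected in M2 cells at 4.92, 5.11 and 5.34, against 5.88, 6.00 and 6.27 in M0 cells (adjusted p = 0.00187), too dim for a fold. Markers of interstitial macrophages and monocytes, a list that shares Cd14, were detected for 3 of 8 genes on M2 arrays and 3 to 4 on M0 arrays, with a summed level of 373 to 529 in M2 and 452 to 654 in M0 cells, and Ccr2 and Cx3cr1 were undetected throughout. Their part in the result was not tested. Under median scaling 0 of the 28 rose and 6 fell, and 6 fell without M2 array a and 5 without both arrays a. Tlr7 was detected on 1 of 3 M2 arrays. Cd14 was detected on 2 of 3 M0 arrays.

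Inflammatory genes moved both ways. Of 19 NF-kB components and inflammatory genes, 5 rose and 4 fell, and the sign of the median turned in 3 of 19 settings. Tnfaip2, which responds to tumour necrosis factor, read 6.42, 6.70 and 6.97 log2 units on the M2 arrays, against 8.84, 9.04 and 8.95 on the M0 arrays (-2.25 ± 0.138 log2, adjusted p = 1.30e-06). Il18, a cytokine made as an inactive precursor, read 6.33, 6.34 and 5.92 log2 units on the M2 arrays, against 8.18, 8.24 and 8.10 on the M0 arrays (-1.98 ± 0.126 log2, adjusted p = 1.61e-06). Il1b, in contrast, read 7.41, 7.12 and 7.51 log2 units on the M2 arrays, against 6.16, 6.19 and 6.54 on the M0 arrays (1.05 ± 0.135 log2, adjusted p = 0.000263), and its receptor Il1r1 rose. The cytokines Il18 and Il1b went in opposite directions, without overlap. Tnfrsf1b, a receptor of tumour necrosis factor, fell by 0.97 ± 0.148 log2 (adjusted p = 0.000780), and the other, Tnfrsf1a, differed by 0.15 ± 0.172 (adjusted p = 0.604). Rela (-0.29 ± 0.115 log2, adjusted p = 0.105) and Il1a (0.53 ± 0.204 log2, adjusted p = 0.0906) missed the threshold. Among 10 chemokine ligands, 3 rose and 2 fell, but 2 rose with any array other than M2 array c left out and 1 without that array, and 1 fell in all but 1 of those fits. Cxcl16, a scavenger receptor that is also a chemokine, read 6.21, 6.07 and 5.92 log2 units on the M2 arrays, against 7.73, 7.72 and 7.60 on the M0 arrays (-1.62 ± 0.170 log2, adjusted p = 6.48e-05), and the bright Ccl9 (0.099 ± 0.103 log2, adjusted p = 0.566) and Ccl6 (-0.21 ± 0.106 log2, adjusted p = 0.201) missed the threshold. Ccl17 is a further member that rose. Ccl24, an eotaxin, was detected on 3 of the 6 arrays and read 6.44, 5.90 and 6.16 log2 units on the M2 arrays, against 6.39, 5.33 and 5.28 on the M0 arrays (0.50 ± 0.292 log2, adjusted p = 0.272). Of 15 interferon response genes, 2 fell and 0 rose, with a median of -0.25, or -0.02 with undetected groups at their bound, and 23 of the 38 listed were not tested; 1 fell without M0 array b or M2 array a. Under median scaling 2 of the 19 inflammatory genes rose. Il18 and Cxcl16 were detected on 1 of 3 M2 arrays. Il1b was detected on 2 of 3 M0 arrays.

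Of 25 antioxidant, glutathione and thioredoxin genes, 11 fell and 0 rose, with a median of -0.29. Gstm1, a glutathione transferase, read 7.43, 7.38 and 7.45 log2 units on the M2 arrays, against 9.26, 9.46 and 9.27 on the M0 arrays (-1.91 ± 0.122 log2, adjusted p = 1.61e-06), but its dimmer probe differed by 0.21 log2 in the other direction, so the probes of this gene disagree. Gpx3, a secreted glutathione peroxidase, was at least 1.88-fold lower (adjusted p = 0.000405). Cat, catalase, read 8.78, 8.93 and 8.84 log2 units on the M2 arrays, against 9.75, 9.70 and 9.68 on the M0 arrays (-0.86 ± 0.0973 log2, adjusted p = 0.000105). The M2 arrays of Gstm1 and Cat were all below the M0 arrays. Sqstm1, the autophagy receptor p62, which also frees the antioxidant regulator Nfe2l2 from degradation, read 6.99, 6.97 and 7.56 log2 units on the M2 arrays, against 8.14, 8.05 and 8.25 on the M0 arrays (-0.97 ± 0.155 log2, adjusted p = 0.00103). Nfe2l2 fell by 0.56 ± 0.0929 log2 (adjusted p = 0.00132), which missed the threshold with medians aligned. The bright members Txn1 (-0.13 ± 0.107 log2, adjusted p = 0.465), Gpx1 (0.08 ± 0.0976 log2, adjusted p = 0.640) and Sod2 (0.097 ± 0.112 log2, adjusted p = 0.615), missed the threshold. Under median scaling 4 of the 25 fell, and 7 without M0 array a, M0 array c or M2 array c.

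Of 63 lysosome and autophagy genes, 18 fell and 1 rose, with a median of -0.20, or -0.17 with undetected groups at their bound. Gabarapl1, an autophagosome protein, read 8.56, 8.52 and 8.77 log2 units on the M2 arrays, against 9.71, 9.45 and 9.49 on the M0 arrays (-0.93 ± 0.106 log2, adjusted p = 0.000113). The lysosomal enzymes Glb1, beta-galactosidase (-0.89 ± 0.190 log2, adjusted p = 0.00625), and Smpd1, acid sphingomyelinase (-0.80 ± 0.182 log2, adjusted p = 0.00929), fell, though another probe of Smpd1 missed the threshold (-0.89 log2, adjusted p over probes = 0.137). Psap, the precursor of saposins, stood at 12.73, 12.86 and 12.98 in M2 cells and 12.66, 12.58 and 12.69 in M0 cells (0.22 ± 0.108 log2, adjusted p = 0.193), Npc2 differed by -0.09 ± 0.0949 log2 (adjusted p = 0.594) and Atp6ap1 by -0.16 ± 0.0990 log2 (adjusted p = 0.308). Under median scaling 7 of the 63 fell, and 11 without M0 array b or without both arrays a, and in these 3 fits, and without M0 array c, M2 array a or M2 array c, 0 rose. Without M2 array a 12 fell.

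Of 10 genes of MHC class II presentation, 5 rose and 0 fell, with a median of 0.46. H2-DMb1, a chain of the peptide editor of class II molecules, read 9.28, 9.27 and 9.46 log2 units on the M2 arrays, against 7.83, 8.19 and 8.36 on the M0 arrays (1.21 ± 0.137 log2, adjusted p = 0.000106), and H2-DMa, its partner, rose by 0.81 ± 0.109 log2 (adjusted p = 0.000350), which missed the threshold with medians aligned. Of the class II chains, H2-Aa missed the threshold (0.17 ± 0.104 log2, adjusted p = 0.289). The brightest probe of H2-Ab1 missed it too (0.34 ± 0.157 log2, adjusted p = 0.160), but 2 of its 3 other probes passed as higher, at 0.47 log2 (adjusted p over probes = 0.00781) and 0.51 log2 (adjusted p over probes = 0.00466). Under median scaling 2 of the 10 rose, and 3 without M2 array c or without both arrays a. Of 41 proteasome subunits, activators and assembly factors, 6 rose and 1 fell, with a median of 0.21; 0 fell without M0 array a, M0 array c, M2 array a or M2 array b. Psmb10, the beta2i subunit of the immunoproteasome, read 11.14, 10.99 and 11.09 log2 units on the M2 arrays, against 10.39, 10.44 and 10.36 on the M0 arrays (0.68 ± 0.0904 log2, adjusted p = 0.000337), which missed the threshold with medians aligned. Psmb9, its beta1i subunit, was bright in both states, at 9.72, 9.79 and 9.66 in M2 cells and 9.80, 9.83 and 9.81 in M0 cells (-0.09 ± 0.116 log2, adjusted p = 0.669). Psmb5, the constitutive subunit in the place of Psmb8, differed by 0.22 ± 0.133 log2 (adjusted p = 0.298). Under median scaling 0 of the 41 passed; 3 rose without M0 array b or M2 array b, and 2 without M2 array c or without both arrays a.

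Adhesion molecules, proteases and matrix genes were split, with 5 of 27 higher and 6 lower. Cdh1, E-cadherin, which marks IL-4-treated mouse macrophages, read 11.55, 11.66 and 11.37 log2 units on the M2 arrays, against 10.10, 10.07 and 9.99 on the M0 arrays (1.48 ± 0.115 log2, adjusted p = 8.82e-06). Mmp13, a collagenase, read 7.66, 8.59 and 8.30 log2 units on the M2 arrays, against 6.87, 6.70 and 6.41 on the M0 arrays (1.52 ± 0.205 log2, adjusted p = 0.000350). Itgb5, an integrin subunit, read 6.53, 6.54 and 6.42 log2 units on the M2 arrays, against 8.40, 8.33 and 8.28 on the M0 arrays (-1.84 ± 0.125 log2, adjusted p = 2.61e-06). The groups of all 3 were apart, Cdh1 and Mmp13 with M2 higher and Itgb5 with M2 lower. Tgfbi, a secreted matrix protein, fell by 1.15 ± 0.111 log2 (adjusted p = 3.71e-05). The bright Lgals3 (0.23 ± 0.102 log2, adjusted p = 0.147), Lgals1 (-0.02 ± 0.0952 log2, adjusted p = 0.915) and Itgax (0.04 ± 0.118 log2, adjusted p = 0.873) missed the threshold. Leaving out M0 array a, M0 array b or M2 array c left 3 of the 27 higher.

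Smaller groups of signalling genes held large single changes. Among 9 purinergic and related receptors, 2 rose and 4 fell. P2ry1, a receptor of ADP, was at least 1.94-fold higher (adjusted p = 0.000741), at 6.93, 6.88 and 7.13 in M2 cells, against 5.94, 5.07 and 5.26 in M0 cells. S1pr2, a sphingosine-1-phosphate receptor, read 8.56, 8.43 and 8.71 log2 units on the M2 arrays, against 9.50, 9.41 and 9.43 on the M0 arrays (-0.88 ± 0.0991 log2, adjusted p = 0.000101), and P2ry6 (0.22 ± 0.0969 log2, adjusted p = 0.136) and P2ry14 (0.05 ± 0.101 log2, adjusted p = 0.785) missed the threshold. Among 16 immediate early genes, 6 rose and 1 fell. Ier3, a stress-induced survival gene, read 9.46, 9.59 and 9.37 log2 units on the M2 arrays, against 7.03, 6.56 and 6.80 on the M0 arrays (2.68 ± 0.168 log2, adjusted p = 1.55e-06). Dusp6, the phosphatase that shuts off ERK kinases, read 8.90, 9.02 and 8.65 log2 units on the M2 arrays, against 10.18, 10.33 and 10.16 on the M0 arrays (-1.36 ± 0.113 log2, adjusted p = 1.29e-05), whereas Fos, a transcription factor downstream of ERK, rose by 0.94 ± 0.191 log2 (adjusted p = 0.00475). Ier3 and Dusp6 kept the states apart in opposite directions. Btg2 (-0.11 ± 0.111 log2, adjusted p = 0.559) and Zfp36 (-0.12 ± 0.126 log2, adjusted p = 0.564) missed the threshold. Among 20 genes of the Bcl2 family and caspases, 2 rose and 4 fell. Casp6 read 7.58, 7.01 and 7.47 log2 units on the M2 arrays, against 6.52, 5.98 and 6.04 on the M0 arrays (1.17 ± 0.195 log2, adjusted p = 0.00138), Bmf, a pro-apoptotic member, was at least 1.13-fold lower (adjusted p = 0.00603), and the survival gene Mcl1 differed by -0.32 ± 0.106 log2 (adjusted p = 0.0525), but passed in the authors' processed values, with the replicate numbers as a block (-0.31 log2, adjusted p = 0.0448) and without (adjusted p = 0.0352). Under median scaling 1 of the 9 receptors, 2 of the 16 and 1 of the 20 rose and 2 of the 20 fell. The receptors had 2 lower without M0 array a, M0 array b or M2 array b, and the sign of their median turned in 3 of 19 settings. Fos was detected on 2 of 3 M0 arrays.

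The identity genes of alveolar macrophages had 3 of 23 members higher and 7 lower, with a median of -0.07, and 4 were lower under median scaling. Among the 7 were Il18, with the largest decrease of the list (-1.98 log2), and Mertk (-0.95 log2), both described above. Marco, a scavenger receptor, read 8.87, 8.67 and 8.56 log2 units on the M2 arrays, against 9.67, 9.48 and 9.83 on the M0 arrays (-0.96 ± 0.121 log2, adjusted p = 0.000226). Krt79, a keratin, was at least 2.36-fold higher (adjusted p = 0.000461), with M2 arrays at 7.11, 7.74 and 6.92 and M0 arrays at 5.06, 5.67 and 4.99. Flt1, a receptor of vascular endothelial growth factor, read 10.01, 9.97 and 9.89 log2 units on the M2 arrays, against 8.39, 8.41 and 8.11 on the M0 arrays (1.65 ± 0.109 log2, adjusted p = 2.23e-06). Marco was lower and Krt79 and Flt1 higher on every M2 array. Plet1, a surface glycoprotein, read 10.89, 10.83 and 10.71 log2 units on the M2 arrays, against 9.75, 9.76 and 9.69 on the M0 arrays (1.08 ± 0.0933 log2, adjusted p = 1.63e-05). Siglecf, a sialic acid receptor among these identity genes, stayed bright at 9.84, 9.88 and 9.85 in M2 cells and 10.24, 10.22 and 10.18 in M0 cells, and fell by 0.36 ± 0.0852 log2 (adjusted p = 0.0115). Its groups did not overlap, but its adjusted p was 0.348 under median scaling, 0.0592 with the 6 knockout arrays alone and 0.0867 without both arrays a. Ctsk (-0.21 ± 0.0988 log2, adjusted p = 0.164), a cathepsin, missed the threshold. Summed over the 28 genes on the array, the level was 20022 to 23947 intensity units in M2 cells and 18982 to 22073 in M0 cells.

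**Figure D4:**
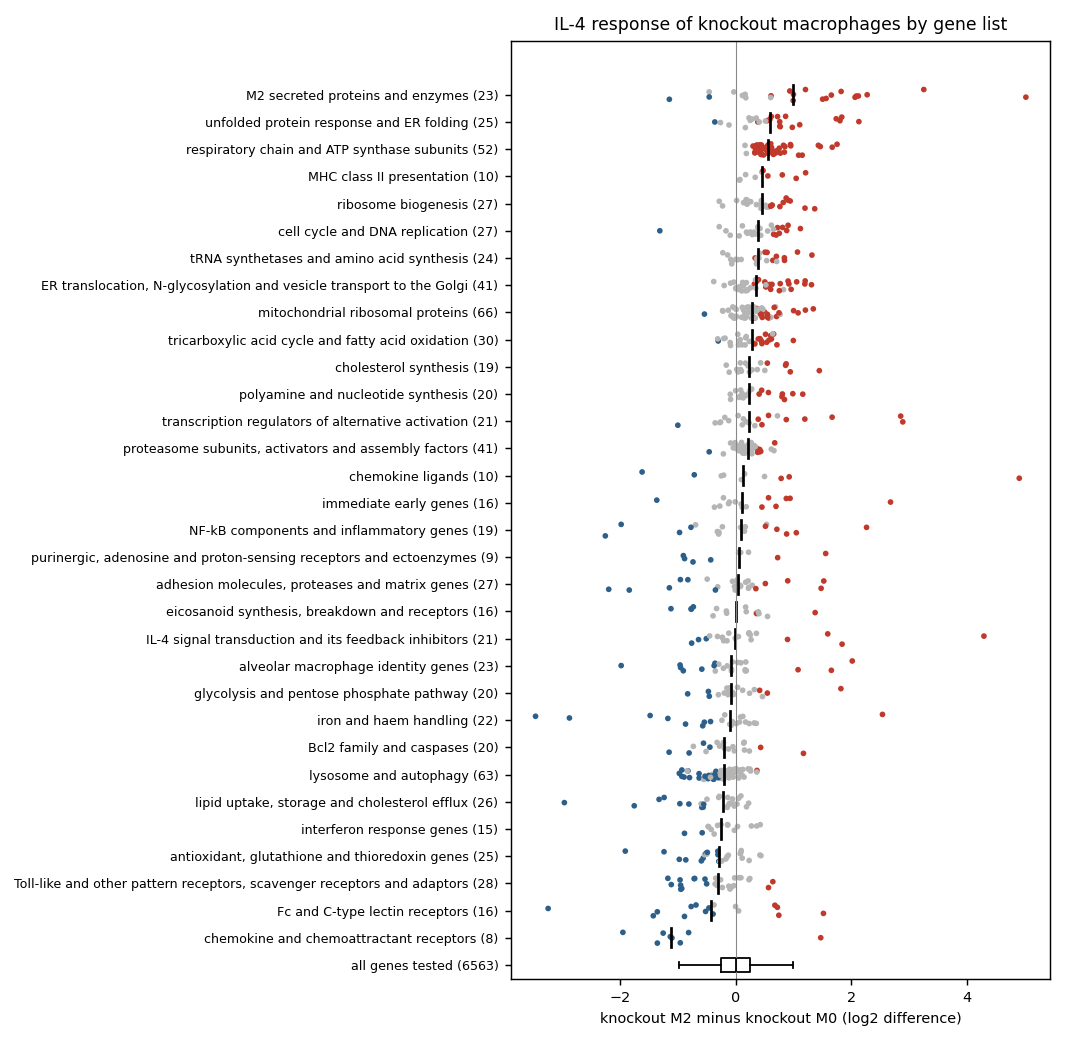
Log2 difference between knockout M2 and knockout M0 cells (horizontal axis) of each tested member (point) of 32 gene lists, ordered by the list median (black bar), with the number tested in parentheses. Red members rose, blue members fell and grey members missed an adjusted p of 0.05; the box at the bottom gives the median, quartiles and, as whiskers, the range without outlying values of all 6563 genes.

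Whether the knockout cells responded differently from wild-type cells was tested by the difference of the responses. It passed for 7 of 6563 genes (0.107%), while 436 had an unadjusted p under 0.05. Retnla read 6.63, 6.41 and 7.05 in wild-type M2 and 4.99, 4.82 and 5.02 in wild-type M0 cells, and its increase was larger in knockout cells by 1.5 ± 0.212 log2 (adjusted p = 0.03122). All 3 knockout M2 arrays of Retnla lay above all 3 wild-type M2 arrays, and the M0 arrays of both genotypes were undetected. Cish, with wild-type M2 arrays at 8.38, 8.46 and 8.25, rose by 0.96 ± 0.152 log2 more in knockout cells (adjusted p = 0.04996). Clec4d stood at 9.40, 9.04 and 8.95 in wild-type M2 and 10.74, 10.55 and 10.61 in wild-type M0 cells, so its decrease was deeper in knockout cells (difference of the responses -1.74 ± 0.208 log2, adjusted p = 0.01496). The M2 arrays of the genotypes did not overlap. Fpr2 showed the same order, with 9.88, 9.89 and 9.75 in wild-type M2 and 10.31, 10.17 and 10.24 in wild-type M0 cells (difference of the responses -0.95 ± 0.150 log2, adjusted p = 0.04996). The 7 genes were picked by the test on these same values, so a separation of the genotypes in them adds no further support.

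For the other 3 genes the M0 levels or the directions differed. Mamdc2, a protein of the extracellular matrix, read 5.36, 5.58 and 5.47 log2 units on the M2 arrays, against 7.55, 7.58 and 7.87 on the M0 arrays in knockout cells, and 5.30, 5.37 and 5.26 in wild-type M2 and 5.99, 6.06 and 6.29 in wild-type M0 cells. Its M2 arrays were undetected in both genotypes, and the knockout M0 arrays lay above the wild-type M0 arrays (difference of the responses -1.39 ± 0.173 log2, adjusted p = 0.01496). Pla2g7, a secreted phospholipase that cleaves platelet-activating factor, read 6.80, 7.0 and 6.77 log2 units on the M2 arrays, against 8.68, 8.68 and 8.48 on the M0 arrays in knockout cells, and 6.75, 6.56 and 6.73 in wild-type M2 and 7.27, 7.09 and 7.23 in wild-type M0 cells (-1.23 ± 0.156 log2, adjusted p = 0.01496). Here too the M2 levels were close and the knockout M0 level was the high one. Gpr65, a proton-sensing receptor, read 7.43, 7.44 and 7.71 log2 units on the M2 arrays, against 8.13, 8.43 and 8.23 on the M0 arrays in knockout cells and fell there by 0.74 ± 0.114 log2 (adjusted p = 0.000866), while in wild-type cells it read 8.29, 8.32 and 8.36 in M2 and 7.89, 8.04 and 7.94 in M0 cells, a difference of 0.37 ± 0.114 log2 (adjusted p = 0.0503). The difference of its responses was -1.10 ± 0.162 log2 (adjusted p = 0.03521). Without knockout M0 array a, b or c the number was 2, 0 and 3, and without knockout M2 array a, b or c it was 0, 3 and 5. The authors' processed values gave 5 genes, and with the replicate numbers as a block 2, Clec4d and Pla2g7.

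**Figure D5:**
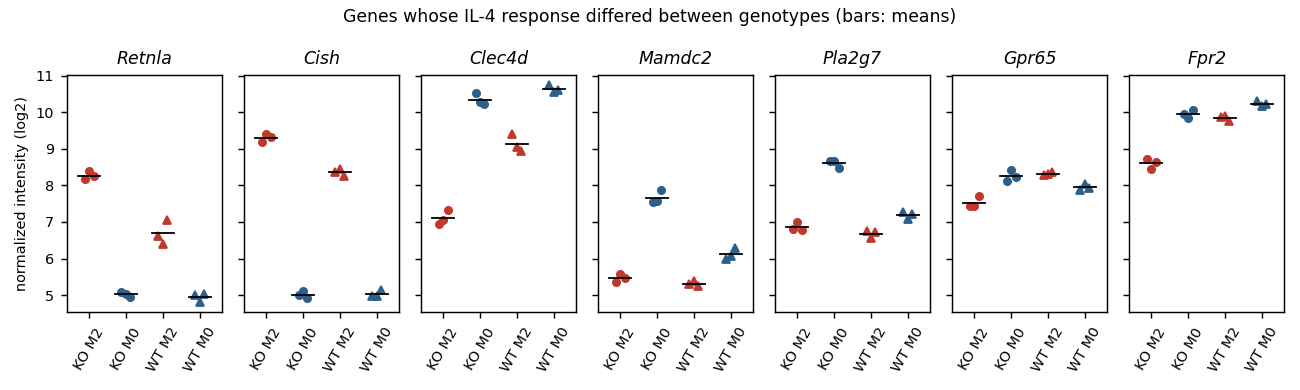
Normalized intensity (log2, vertical axis) of the 7 genes whose IL-4 response differed between the genotypes, in knockout M2, knockout M0, wild-type M2 and wild-type M0 cells. Each point is an array (circles knockout, triangles wild type, red M2, blue M0) and each bar the mean of 3; the knockout M2 arrays of Retnla lie at 8.18 to 8.38 and the wild-type M2 arrays at 6.41 to 7.05.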

How the data were processed

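RNA of alveolar macrophages was extracted with RNeasy columns including a DNase step, amplified with the Ovation PicoSL WTA system, labelled with biotin and hybridized to Illumina BeadArrays, per the labels' protocols. The authors deposited a non-normalized table of probe intensity values (whole numbers, some below 0, thus background-subtracted) with a detection p-value for each probe and array, and per-array processed intensities on a linear scale. What software and settings made them is not given in the sources used here. Columns of the non-normalized table name the group and no replicate number, and are called arrays a, b and c here.

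From the deposited intensity values, log2 levels were computed with limma 3.58.1 in R 4.3.3: normexp background correction from the detection p-values (offset 16), quantile normalization over 12 arrays and a filter of detection p under 0.05 on at least 3 arrays. A gene is its kept probe of highest mean. Of 25697 probes, 23978 have 1 symbol, 0 several and 1719 none. One model of 4 group means gave the M2 minus M0 difference in knockout cells and the difference of the responses, with two-sided moderated tests, Benjamini-Hochberg adjustment over 6563 genes and a threshold of 0.05. The number of arrays limits the precision. The script was tested on simulated data with 200 changed genes and independent noise, which held no effect shared by the genes of an array or by a replicate. Figures were drawn with matplotlib 3.10.9.

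Named are the 20 largest increases and decreases past the threshold whose groups do not overlap, from each list at most 6 genes past the threshold (by size) and at most 3 others (by brightness), a fixed set of macrophage genes, and genes past the threshold in the difference of the responses. The members and lists were chosen with earlier results of these data known. In the authors' processed values, whose columns carry replicate numbers, same-numbered knockout M2 and M0 arrays deviated together (r = 0.363, 0.202 and 0.18), so a fit with the replicate number as a block was made. Alternatives covered the background correction, scaling, filter, choice of probe, samples fitted, array weights, the authors' values and each array left out.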

Additional observations from a re-analysis of the deposited data

Results flagged for a closer look

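For 7 genes the IL-4 response differed between knockout and wild-type cells by the test of that difference in limma, which 0.107% of all genes passed. The differences are given as the knockout response minus the wild-type response. Positive differences were 1.5 log2 for Retnla (adjusted p = 0.0312) and 0.96 log2 for Cish (adjusted p = 0.04996). Negative differences were -1.74 for Clec4d, -1.39 for Mamdc2 and -1.23 for Pla2g7 (adjusted p = 0.01496 for each), -1.10 for Gpr65 (adjusted p = 0.0352) and -0.95 for Fpr2 (adjusted p = 0.04996). No gene changed sign under the alternatives. The calls of Retnla and Cish were lost with cyclic loess (adjusted p = 0.0852 and 0.117), and of the 7 only Clec4d was called under median scaling.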

How the results depend on the processing

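The number of genes past the threshold between knockout M2 and M0 cells was 1422 of 6563. It was 598 (186 higher, 412 lower) under median scaling, of which 582 are among the 1422. In the other alternatives over the same 6563 genes it ranged from 977 to 1540. The stricter filter gave 1182 of 3005 genes and no filter on dim probes 1307 of 16593 genes. Every kept probe by itself gave 1918 of 9200 probes. With 1 knockout array left out it was 1074 to 1179 (510 to 569 higher, 537 to 622 lower), and without both arrays a 977. With the replicate number as a block in the authors' processed values it was 1540, against 1505 without the block. Of the named calls of the quantile-normalized fit, the block ended those of Aars (adjusted p = 0.0556), C5ar2 (0.057) and Psmc4 (0.0643) and no other, and against the unblocked fit of the same values it ended these and those of Etfa (0.0541), Klf6 (0.074) and Pkm (0.0543). The 7 differences between the responses were less stable. Median scaling gave 1 (0 higher, 1 lower) and the replicate block 2 (0 higher, 2 lower). Every probe by itself gave 13 of 9200 probes (11 lower). Array weights gave 8 lower, the stricter filter 1 higher, and cyclic loess, no normexp and the authors' values 0 higher. With 1 knockout array left out 0 to 5 passed (0 higher, 0 to 5 lower). None passed without both arrays a (0 higher, 0 lower), where 407 had an unadjusted p under 0.05 in limma, nor without M0 array b (388) or M2 array a (409). The causes were not tested. Of 204 named calls, 130 kept their call in every alternative run for them, which for some was 18 of the 19, 74 lost it in at least 1, median scaling ending 54, and 0 reversed.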

Other observations

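Probes of the same gene disagreed for some members. The brighter probe of Gstm1 differed by -1.91 log2 between knockout M2 and M0 cells and its other probe by 0.21 log2. Likewise Bbc3, a pro-apoptotic gene, gave -1.15 and 0.22 log2, and Pfkl, a phosphofructokinase, -0.83 and 0.41 log2. Tbxas1, thromboxane synthase, gave 0.36 log2 on its brighter probe and 1.02 log2 on the other.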
